A study of Homo sapiens with 26 samples.

Results

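Among 20163 protein-coding genes, 795 (3.94%) carried H3K4me1 at a promoter in every H3K4me1 peak list while none of their promoters overlapped an H3K27ac peak in any H3K27ac list. These genes are called H3K4me1-only genes here. They were chosen by those peak overlaps, with a promoter running from 1000 bp upstream to 200 bp downstream of a start site on GRCh37, 1 entry per gene and at least 1 bp of overlap. The choice of members therefore fixes both marks at the promoter, and nothing below treats their presence or absence there as a result. Of the 6974 genes without H3K27ac at any promoter, the members made up 11.4%, 716 had H3K4me1 in 1 to 5 lists and 5463 had no H3K4me1 at all.

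Both marks were measured by ChIP-seq in HCT116 cells, an established line from a colorectal carcinoma that retains intact p53. The parental line (WT) was treated with the vehicle DMSO (0 h) or with Nutlin-3a for 1 h or 10 h. Nutlin-3a blocks the binding of HDM2 to p53 and so stabilises p53. H3K4me1 was measured in WT at these 3 time points, and H3K27ac in WT at the same times and, at 0 h and 1 h, in HCT116_RAD21, a derivative that carries a degradable form of the cohesin subunit RAD21. The study describes depletion of RAD21 in that derivative with an auxin analogue, a treatment which the labels do not state (RAD21 line below). With 2 libraries in each of 8 groups and 1 peak list per library, there were 6 H3K4me1 lists and 10 H3K27ac lists. The study describes its replicates as biological, and the labels only number them without naming cultures, so the tests measure the spread between these lists. Lists held 84492 to 92943 H3K4me1 peaks and 31640 to 49127 H3K27ac peaks. They give no read counts, so the depth behind a peak is unknown here. Peak names of 3 H3K27ac lists (WT 0 h replicates 1 and 2, WT 1 h replicate 1) do not name an input, unlike those of the other lists.

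H3K4me1 is a histone mark laid down mainly by the KMT2C and KMT2D methyltransferases, and it is best known from enhancers, where it can precede activation. H3K27ac, written by the acetyltransferases p300 and CBP, accompanies active enhancers and promoters. At the start site of an active CpG-rich gene H3K4me3 usually takes the place of H3K4me1, which then flanks the start. A promoter is called poised in the strict sense when H3K4me3 and H3K27me3 occur together. Neither of those marks, nor RNA, was analysed here, so that name was not used and no statement on expression is made.

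The labelled cell type was checked against marker genes. Of 21 colorectal epithelial genes, 12 had H3K27ac at a promoter in all 10 lists, EPCAM, CDH1 and CDX2 among them, and 9 had it in 0 lists, VIL1, CEACAM5 and GPA33 among them. H3K27ac was present in all 10 lists at 0 of 30 leukocyte, 0 of 16 hepatocyte and 0 of 12 erythroid and germ cell genes, at 1 of 11 endothelial genes (ESAM) and at 1 of 18 fibroblast and muscle genes (ACTA2), at 1 of 26 genes of differentiated intestine, at 2 of 13 glial and melanocyte genes, at 3 of 12 genes of the epithelial to mesenchymal transition and at 12 of 25 neuronal genes. Several of these genes had it in fewer lists, such as the leukocyte genes CD8A, CD68 and CORO1A (9 lists) and hepatocyte F2 (7 lists). Neither mark was found in any list at 15 of the 30 leukocyte, 11 of the 16 hepatocyte and 9 of the 12 erythroid and germ cell genes.

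The promoters differed widely in CpG content, which is shown here by the 200 bp upstream of the start site for the gene list member with the least CpG and the one with the most, among 25 with no annotated exon in that stretch, out of 31 list members outside chromosomes 8 and 18. CpG dinucleotides are in capitals, and sequences are read 5′ to 3′ on the strand of the gene from GRCh37. The promoter with the least CpG belonged to APOA2, an apolipoprotein of high-density lipoprotein.
APOA2 (chr1:161193422-161193621, minus strand): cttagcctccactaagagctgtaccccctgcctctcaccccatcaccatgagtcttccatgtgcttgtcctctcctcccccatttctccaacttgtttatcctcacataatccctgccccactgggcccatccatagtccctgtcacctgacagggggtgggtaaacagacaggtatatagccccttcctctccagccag
The promoter with the most CpG belonged to HEY2, a Notch target.
HEY2 (chr6:126070578-126070777, plus strand): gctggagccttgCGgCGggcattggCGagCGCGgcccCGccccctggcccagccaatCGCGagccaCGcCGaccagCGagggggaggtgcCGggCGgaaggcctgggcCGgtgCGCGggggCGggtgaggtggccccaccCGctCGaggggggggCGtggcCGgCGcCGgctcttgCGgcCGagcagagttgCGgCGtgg
The stretch of APOA2 held 0 CpGs and that of HEY2 27. Over the whole 1200 bp promoter the ratio of observed to expected CpG was 0.107 at APOA2 and 0.963 at HEY2.

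Most H3K4me1-only promoters were CpG-poor. The median ratio of observed to expected CpG was 0.330 over the members, against 0.701 over the 10778 genes with H3K4me1 in all 6 lists and H3K27ac in all 10 (called acetylated genes here) and 0.304 over the 5463 genes with neither mark. Promoters with a ratio of at least 0.6 and at least 50% G and C made up 22.3% of the members (177 of 795), 62.6% of the acetylated genes and 17.7% of the genes with neither mark. The members' median G and C content was 53.6%, between 56.1% and 48.0%. These shares describe the promoter sequences, and were given no test. In CpG the members lay closer to the unmarked genes, and in G and C content closer to the acetylated genes.

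**Figure D1:**
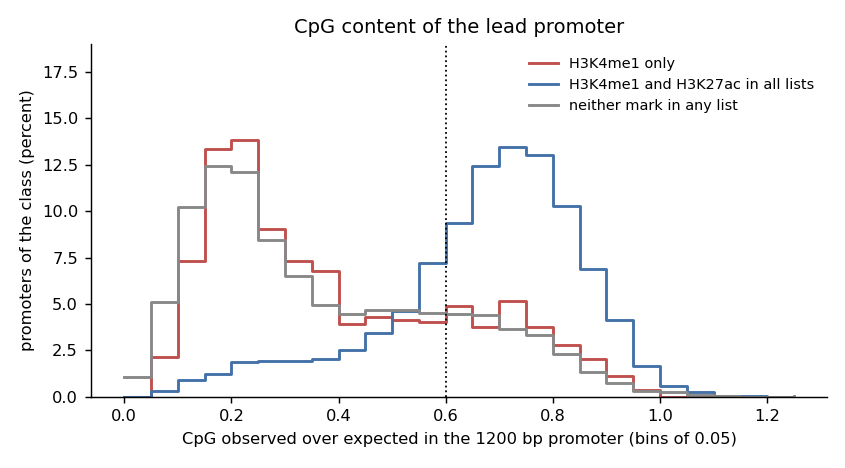
Share of promoters (percent of the class, y axis) in bins of the ratio of observed to expected CpG (x axis) for 795 H3K4me1-only genes, 10778 acetylated genes and 5463 genes with neither mark; the dotted line marks 0.6. The H3K4me1-only curve peaks at low ratios like the curve of unmarked genes, with a shoulder at the ratios where the acetylated genes lie.

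A TATA box was read as TATAAA on the strand of the gene between 50 and 15 bp upstream of the start. It occurred in 37 members (4.65%), in 1.16% of the acetylated genes, in 7.47% of the genes with neither mark and in 3.32% of all 20163 promoters. A match to these letters is not evidence of a bound factor. Outside the same chromosomes, 11 TATA-bearing members were in a family or list and had no annotated exon there, and of these the 6 with the widest domains are shown by the 60 bp upstream of the start, with TATAAA in capitals. GPR15 is a leukocyte homing receptor, SPINK4 a protease inhibitor of goblet cells, CXCR4 a chemokine receptor, FZD8 a Wnt receptor, and SLC4A9 and SLCO2A1 are membrane transporters.
GPR15 (chr3:98250762-98250821, plus strand): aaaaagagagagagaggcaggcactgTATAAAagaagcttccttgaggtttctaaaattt
SLC4A9 (chr5:139739719-139739778, plus strand): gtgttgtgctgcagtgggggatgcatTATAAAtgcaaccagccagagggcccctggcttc
SPINK4 (chr9:33240105-33240164, plus strand): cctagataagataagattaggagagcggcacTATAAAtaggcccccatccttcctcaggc
CXCR4 (chr2:136875720-136875779, minus strand): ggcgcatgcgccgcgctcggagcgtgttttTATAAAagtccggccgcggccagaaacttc
FZD8 (chr10:35931225-35931284, minus strand): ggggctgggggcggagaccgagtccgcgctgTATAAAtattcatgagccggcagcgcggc
SLCO2A1 (chr3:133748770-133748829, minus strand): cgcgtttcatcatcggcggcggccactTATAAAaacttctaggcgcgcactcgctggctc
CXCR4, FZD8 and SLCO2A1 combined the TATA letters with a CpG ratio of 0.734, 0.790 and 0.675, whereas the ratio was 0.152, 0.106 and 0.318 for GPR15, SLC4A9 and SPINK4.

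H3K4me1 domains at the members were narrower than at acetylated genes. A domain is the longest H3K4me1 peak over the promoter in a list, and the gene's lead promoter is the one with most lists and the widest domain. The members' median width was 1425 and 1326 bp in the 0 h lists, 1610 and 1465 bp in the 1 h lists and 1203 and 1378 bp in the 10 h lists. The acetylated genes had medians of 3032.5 and 2705.5, 3532.5 and 3426, and 2460 and 2923 bp in the same lists. The members' median was lower in 6 of 6 lists, and the 2 sets of medians did not overlap. On the log2 scale the ratio was −1.10 ± 0.07 (SD, n = 6 lists), or 0.467-fold, with an exact two-sided sign-flip permutation p = 0.03125, the smallest that 6 lists can give. With only H3K4me1 peaks of −log10 q of at least 5, where 351 members remained, the ratio was −0.50. Acetylated genes had more start sites (median 3 against 2) from which a wide domain could be taken. With only the outermost start site of each gene the ratio was −0.77. The classes were set by H3K27ac over the same promoters, and a wider domain has more room for a second mark. The p-value therefore measures the spread between lists, and the test cannot tell what the difference in width rests on. The members' medians lay just above the median of all H3K4me1 peaks of each list, 1122 to 1269 bp.

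**Figure D2:**
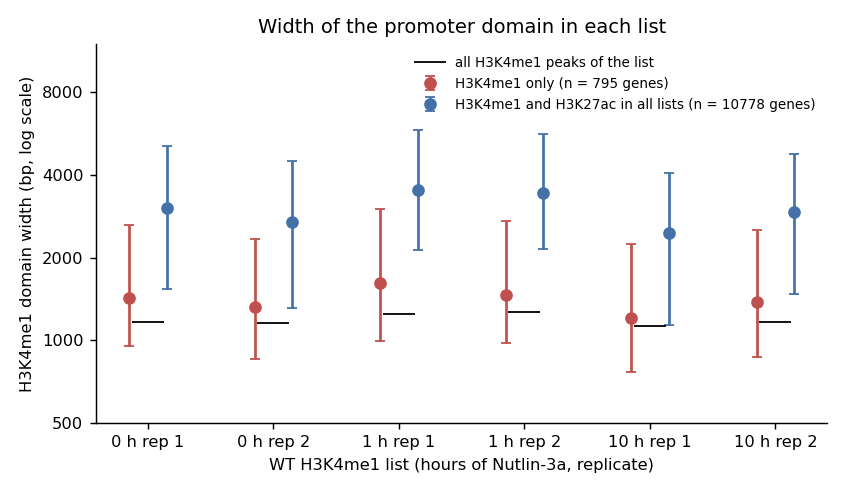
Median width in bp (log axis) of the H3K4me1 domain at the promoter in each of the 6 WT lists, with bars for the quartiles over genes; black dashes give the median of all peaks of the list. In every list the H3K4me1-only genes lie below the acetylated genes and just above the typical peak.

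Each gene's width was then taken as its median over the 6 lists, which gave 1369.5 bp for the median member, with quartiles of 914.75 and 2500.25 bp. Domains under 1000 bp were found at 16 and 231 members (under 500 bp and from 500 bp, 2.01% and 29.1%). At acetylated genes these shares were 0.39% and 9.92%. Domains of 5000 bp or more were found at 70 members (8.81%) and at 23.6% of the acetylated genes. From the lead start site the domain reached a median of 731.5 bp upstream and 501 bp downstream at the members, and 1560 and 1424.75 bp at the acetylated genes.

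H3K4me1 more often covered the start site itself at the members. Across lists 81.7% ± 2.5 (SD, n = 6 lists) of the members had a start site inside an H3K4me1 peak, against 66.1% ± 6.4 of the acetylated genes. The difference of 15.6 ± 4.5 percentage points was positive in 6 of 6 lists (range 8.88 to 20.0, exact two-sided sign-flip permutation p = 0.03125, again the smallest possible). A start site lay inside H3K4me1 in all 6 lists at 559 members (70.3%) and at 50.2% of the acetylated genes, and in none at 81 members. Acetylated genes had more start sites at which to meet a peak (median 3 against 2). With only the outermost start site of each gene the difference was 19.5 percentage points. Genes with H3K4me1 in all lists and H3K27ac in 1 to 9 (1235 genes) stood at 92.7% ± 1.8, above both.

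The strength of the domains was moderate. Each peak was given its percentile within its list by −log10 p-value, 100 being the strongest. The members' median percentile was 56.7 ± 4.3 over the 6 lists (SD, n = 6), and that of the acetylated genes 74.9 ± 1.4. The median fold enrichment that the authors' peak caller gave was 4.12 ± 0.24 and 5.11 ± 0.39.

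The widest domains surrounded genes of several tissues. GPR15 stood apart, with widths of 45041 and 45302 bp at 0 h, 40544 and 39848 bp at 1 h and 45159 and 45229 bp at 10 h. Its 1 h values were the lowest pair, but the width test below did not call its region. A transcript that runs through the neighbouring gene, ENSG00000285635, also covers this start site. HES7, a repressor of the segmentation clock, followed with a median of 23899.5 bp, but its domain measured 13557 bp in 0 h replicate 1 and 13950 bp in 10 h replicate 1 against 23856 to 24724 bp in the other lists and so took either of 2 sizes. Next came C17orf99 (20143 bp), PPP1R1B, which encodes the dopamine-regulated phosphatase inhibitor DARPP-32 (19838 bp), the tyrosine kinase gene SRMS (15231 bp), the renal phosphate transporter gene SLC34A3 (14978.5 bp), FCRLB of the Fc receptor-like family (14827 bp), the adhesion gene NECTIN4 (13933.5 bp), ARMC12 (13453 bp) and SYNPO, an actin-binding gene of podocytes (13127.5 bp). At all 10 of these genes, H3K27ac peaks of all 10 lists lay elsewhere in the same merged domain, the nearest at 362 to 3228 bp from a promoter of the gene. The narrowest domains were at SLCO2B1, a transporter gene (331 bp), CELF4, a neuronal splicing regulator (332.5 bp), and MYOM3, a sarcomere gene (424 bp).

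The strongest domains by mean percentile were at C17orf99 (99.6), LTBP2 of the latent TGF-beta binding protein family (99.5), SLC34A3 (98.4), GADD45G, a stress sensor of the growth arrest family (98.3), and CSDC2, an RNA-binding gene (98.3). The weakest were at KCP, a BMP regulator (10.2), ENSG00000289722 (13.8) and KRT20 (14.6), a keratin of differentiated colonic epithelium. KRT20 had widths of 1293, 591, 1154, 1070, 1068 and 904 bp in the 6 lists.

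H3K27ac was often nearby although absent from the promoters. Of the members, 326 (41.0%) had an H3K27ac peak of at least 1 list within 5000 bp of a promoter, against 13.1% of the genes with neither mark, and 155 (19.5%) had it within 1000 bp. The median distance to the nearest H3K27ac was 8354 bp at the members and 37678 bp at the genes with neither mark. H3K27ac lay elsewhere in the same merged H3K4me1 domain at 211 members (26.5%), in all 10 lists at 93 of them. Those 211 genes had a median width of 3984.5 bp and a median percentile of 79.2, and the other 584 had 1122.75 bp and 49.7. A wider region has more room for a second mark, so this split by width is a description with no test. For the 277 members with H3K27ac within 5000 bp of the lead start site, the nearest peak was downstream at 146 and upstream at 131, and it lay on a promoter of another coding gene at 37 (13.4%). The closest were at LAMA4, a laminin chain of vascular basement membranes (1 bp), GPIHBP1, which carries lipoprotein lipase across capillaries (9 bp), and MB, which encodes myoglobin (11 bp). Among the farthest were the melanocyte regulator MITF (558350 bp) and TTC29 (345840 bp).

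In single H3K27ac lists, 24.3% to 28.3% of the members had a peak within 5000 bp of a promoter, and 5.80% to 6.70% of the genes with neither mark. The WT 0 h lists gave member shares of 26.9% and 26.2%, the 1 h lists 27.8% and 28.3%, and the 10 h lists 24.5% and 24.3%. The RAD21 line gave 24.9% and 24.8% without Nutlin-3a and 27.8% and 27.7% after 1 h. In both lines the 1 h lists were above the 0 h lists without overlap. With 2 lists per group no exact test can reach 0.05, so none was run. H3K27ac peaks were also wider at 1 h, with list medians of 956 and 976 bp in WT against 826 and 868 bp at 0 h, and 1110 and 1169 bp against 788 and 785 bp in the RAD21 line. The part of width in the shares was not tested. Both WT 0 h lists and 1 of the WT 1 h lists belong to the 3 lists whose peak names lack an input, whereas all RAD21 lists name one.

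**Figure D3:**
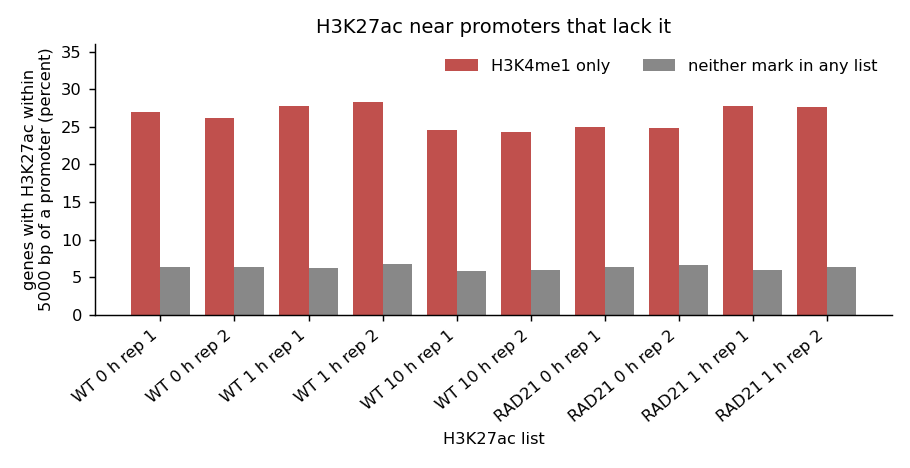
Percent of genes (y axis, from 0) with an H3K27ac peak within 5000 bp of a promoter in each of the 10 H3K27ac lists, for H3K4me1-only genes and for genes with neither mark. The H3K4me1-only bars lie between 24.3% and 28.3%, and the others between 5.80% and 6.70%.

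Some members gained H3K27ac in their neighbourhood without gaining it on the promoter. In WT, 13 members (1.64%) had a peak within 5000 bp in both 1 h lists and in neither 0 h list, and 15 (1.89%) the reverse. Over all 20163 genes the percentages were 0.65% and 0.422%, but most other genes had H3K27ac nearby in every list and so could not change, and 0.366% and 0.604% of the genes with neither mark changed. Those that gained included NR2E3, a photoreceptor nuclear receptor, TMEM88B, EDN2, an endothelin, and KCNH6, a potassium channel. Those that lost included the gelatinase gene MMP9, HCRT, the orexin precursor, and LMOD1 of smooth muscle. At 10 h 15 members gained and 20 lost such a peak (1.89% and 2.52%). The shares were 0.779% and 1% of all genes and 0.915% and 0.879% of the genes with neither mark. CLDN5 of endothelial tight junctions, the cytokine gene IL17C and ARHGAP30, a GTPase regulator, gained, and CIITA, the master regulator of MHC class II genes, and LHX1 lost. EDN2, RASL10A and SMIM47 were among those that gained at both times. The 0 h and 10 h lists also differ in whether an input is named, so the time and that property cannot be told apart. In the RAD21 line 22 members gained and 8 lost at 1 h (2.77% and 1.01%), ICAM1 and CIITA among the gains. The shares there were 0.803% and 0.531% of all genes and 0.751% and 0.567% of the genes with neither mark. ABCC12, KCNH6 and NPIPA3 gained in both lines, of which NPIPA3 belongs to a family of near-identical copies and is uncertain. These genes were picked out after their values were seen.

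The share of H3K4me1-only genes differed between gene families. Families were read from gene symbols, and the share over all coding genes, 3.94%, is the background. They were chosen with earlier results of these data known, and their shares were not tested. Collagens, laminins and other matrix genes stood highest, with 13 of 85 (15.3%). Phosphodiesterases, phospholipases and receptor phosphatases followed with 14 of 115 (12.2%), serine proteases and serpins with 13 of 107 (12.1%), neurotransmitter receptors with 14 of 117 (11.97%), cytokines, chemokines and their receptors with 25 of 220 (11.4%) and ion channels with 22 of 209 (10.5%). The lowest shares were at genes for ribosome, proteasome and respiratory chain (1 of 365, COX6B2), olfactory receptors (3 of 415), cadherins and protocadherins (1 of 105, CDH5) and zinc finger genes (6 of 610), and no cancer testis antigen of 116 was a member. Families with low counts differed in their marks. H3K27ac in all 10 lists was found at 93.7% of the ribosome, proteasome and respiratory chain genes and at 67.4% of the zinc finger genes. Neither mark was found at 94.9% of the olfactory receptor genes and at 81.0% of the cadherin genes. Over all coding genes these 2 shares were 57.9% and 27.1%. The zinc finger genes, 25.2% of which had neither mark, lay near both. In all, 236 members fell in a family.

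**Figure D4:**
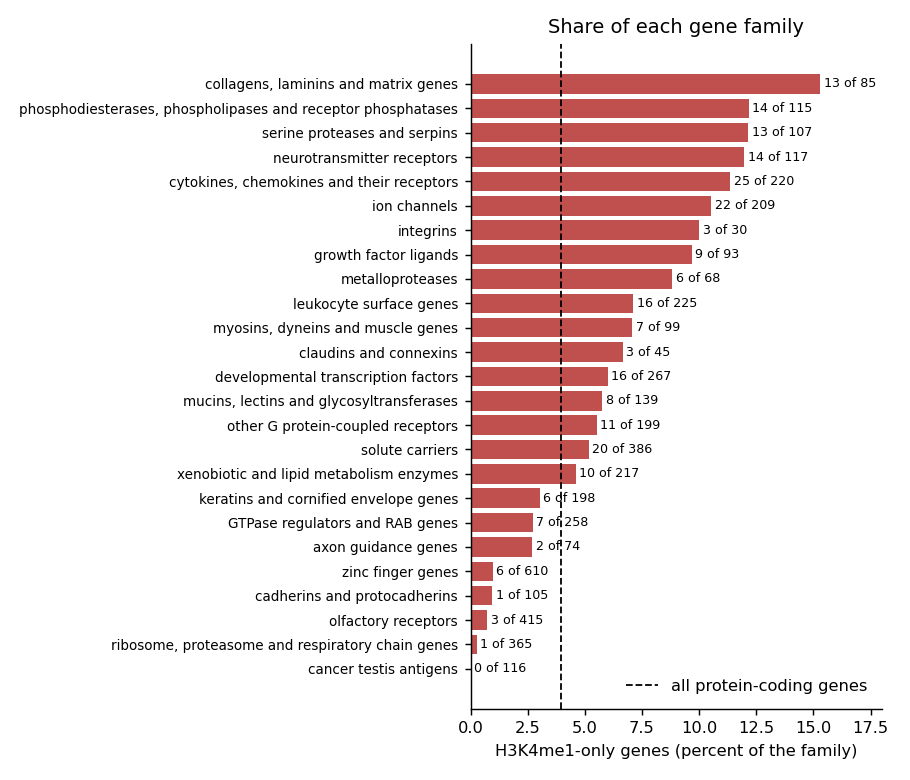
Percent of the genes of each of 25 families that were H3K4me1-only (x axis), with the counts beside the bars and the share over all coding genes as a dashed line. Matrix genes reach 15.3%, and ribosome, zinc finger and olfactory receptor genes stay below 1%.

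Among the matrix genes the domains had a median of 2048.5 bp. ELN, which encodes elastin, had the widest, 5031.5 bp, with 5614, 5017, 5680, 4824, 4916 and 5046 bp in the 6 lists. None of the start sites of ELN was inside a peak, and the nearest H3K27ac was 22491 bp away. COL1A1, the main collagen chain of bone and skin, had 4677 and 4740 bp at 0 h, 4969 and 4796 bp at 1 h and 4628 and 4908 bp at 10 h, and H3K27ac of all 10 lists lay in the same domain, 140 bp from the promoter. LAMA4 had a width of 4121 bp at a percentile of only 33.5, a wide but weak domain. COL5A3, COL8A1, COL14A1, COL15A1, COL16A1 and COL17A1 of the collagens, TNC, FBLN5, EMILIN2 and MATN4 completed the group.

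Secreted signals and their receptors included both short and long domains. Growth factor ligands were the widest family with more than 3 members, with a median of 3072.5 bp over 9 genes, 6 of which were CpG-rich. ANGPT2, an angiopoietin, measured 8985, 2128, 8738, 8943, 2149 and 1562 bp in the 6 lists, so its lists fell into a wide and a narrow set of 3 each. WNT11 ranged from 5087 to 5413 bp and WNT7A from 3938 to 4741 bp. BMP6 and TGFB2, ligands of the TGF-beta family, were narrower at 1163.5 and 1173.5 bp. Cytokines, chemokines and their receptors had a median of 1123.5 bp over 25 genes, of which only 1, CXCR4, was CpG-rich. CXCR4 ranged from 2600 to 2898 bp and lay 115517 bp from the nearest H3K27ac. IL34 and IL17C had the widest domains of this group. IL11 had a percentile of 92.8 with H3K27ac 43 bp from its promoter. The inflammatory cytokine genes IL6 and IL1A had percentiles of 47.5 and 48.0 and their nearest H3K27ac at 71933 and 8621 bp.

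Genes of channels, transmitter receptors and transporters were members as well. Of the 22 ion channel genes, 10 were CpG-rich, and the median width was 1500.75 bp. KCND3, a voltage-gated potassium channel, had 2733 to 2998 bp and its nearest H3K27ac at 225436 bp. SCN9A, the sodium channel of pain-sensing neurons, had 1440 to 2565 bp. The widest was TRPV2, a cation channel, at 8399 bp, with H3K27ac of all 10 lists in its domain. The 14 neurotransmitter receptor genes, among them CHRNA9 and GRIN3B, had a median of 1367.75 bp. The 20 solute carriers, 5.18% of 386 and so close to the share over all coding genes, spanned 331 to 14978.5 bp.

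The 16 developmental transcription factor genes, 5.99% of 267 and so close to the 3.94% over all coding genes, had a median width of 1703.25 bp. Of them 7 were CpG-rich. RUNX2, the regulator of bone formation, had 4491 to 5638 bp. ATOH1, which directs secretory cells of the intestine, had 1632 and 1812 bp at 0 h, 1920 and 1864 bp at 1 h and 2246 and 2261 bp at 10 h. The 10 h widths of ATOH1 were the highest pair, but the width test below did not call its region. NEUROG2, a proneural factor, had 1957 to 2541 bp, and LHX1 1101 to 1432 bp.

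Of the lists of tissue markers and pathways, all but the p53 targets had a larger share of members than all genes (3.94%). The excess is thus not particular to any tissue named here. The lists were chosen with earlier results of these data known, most shares rest on 5 or fewer members, and none was tested. In the Wnt, Notch and Hedgehog list 6 of 43 genes were members (14.0%): the ligands WNT1, WNT7A, WNT10A and WNT11, the secreted inhibitor SFRP4 and the Notch target HEY2. Of them 5, all but SFRP4, were CpG-rich, and 14 of the 43 had H3K27ac in all 10 lists. WNT10A measured 1808 and 1846 bp at 0 h, 8397 and 7923 bp at 1 h and 2066 and 5725 bp at 10 h. The 1 h lists were the highest for WNT10A, though the rank of its region had the opposite sign, and neither test called it. Of 30 leukocyte markers 5 were members (16.7%): the T cell kinase LCK, the monocyte receptors CD14 and CSF1R, the homing receptor CCR7 and VAV1, a signalling factor of blood cells. CCR7 stood out with a percentile of 91.3 and H3K27ac 28 bp away. The list of differentiated intestinal epithelium held 4 of 26 (15.4%): LYZ, which encodes lysozyme, REG4, SPINK4 and DCLK1. SPINK4 measured 11142 and 10716 bp at 0 h against 1763 to 2900 bp later, but the width test below did not call its region. The colorectal list held KRT20 and LGR5, the R-spondin receptor of intestinal stem cells (2 of 21, 9.52%), with LGR5 at 2359 to 2759 bp and a percentile of 86.0. Members made up 4 of 18 fibroblast and muscle genes, COL1A1, FAP, PDGFRA and CNN1 (22.2%). They also included 3 of 13 glial and melanocyte genes, AQP4, SOX10 and MITF (23.1%), 2 of 11 endothelial genes, CDH5 and CLDN5 (18.2%), 2 of 25 neuronal genes, SNAP25 and SYN1 (8.0%), 2 of 16 hepatocyte genes, APOA2 and TTR (12.5%), and 2 of 12 erythroid and germ cell genes, HBA2 and STRA8 (16.7%). HBA2 has a near-identical neighbour, HBA1, and peaks there are uncertain. MMP9 was the only member of 12 genes of the epithelial to mesenchymal transition. No member was found among 50 p53 targets, a list in which the share over all coding genes, 3.94%, would also give few. Of these targets 44 (88.0%) had H3K27ac in all 10 lists, against 57.9% of all coding genes.

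Few member regions changed in H3K4me1 rank with Nutlin-3a. The 795 genes lay in 775 merged regions, all called in all 6 lists, with 18 regions shared by 2 members and 1 by 3 (ENSG00000241690, C20orf141 and TMEM239 on chromosome 20, a region of 1475 bp). Each region's rank by −log10 p-value within a list was turned into a normal score and tested with limma over all 60476 regions. At 1 h 4 member regions rose and 0 fell at an adjusted p under 0.05 (0.516% of the 775 rose), where 0.291% and 0.304% of all regions rose and fell. At 10 h 4 member regions rose and 0 fell, beside 0.615% and 0.0231% of all regions. The shares of all regions were of the same order as those of the members. At an unadjusted p under 0.05, 122 member regions (15.7%) passed at 1 h and 56 (7.23%) at 10 h, against 15.5% and 8.66% of all regions. The median change was 0.05 over the members at 1 h and −0.08 at 10 h, and −0.003 and −0.02 over all regions.

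The regions that rose at 1 h were those of TSPEAR, a gene of hearing and tooth development, TMEM88B, KCND3 and NR2E3. TMEM88B had scores of 0.15 and 0.33 at 0 h, 1.69 and 1.49 at 1 h and 0.64 and 0.56 at 10 h, a change of 1.35 ± 0.17 (SE, limma adjusted p = 0.00363). The 1 h scores of TMEM88B lay above all others, and its region carried H3K27ac elsewhere in 6 lists. A region takes the rank of its strongest peak, which need not lie over the promoter. The peak over the TMEM88B promoter had percentiles of 68.8 and 6.6 at 0 h, 54.0 and 28.3 at 1 h and 7.3 and 5.0 at 10 h, and those of 0 h and 1 h overlap. KCND3 rose by 0.84 ± 0.17 (limma adjusted p = 0.0385) and NR2E3 by 0.78 ± 0.17 (limma adjusted p = 0.0480). TSPEAR went from −1.81 and −2.59 at 0 h to −0.25 and −0.16 at 1 h and −0.53 and −0.49 at 10 h, and its region was called at both times (limma adjusted p = 0.0222 and 0.0398). At 10 h the regions of CYGB, which encodes cytoglobin, IZUMO1R, the egg receptor for the sperm protein IZUMO1, and ARHGAP30 rose as well. CYGB went from −2.32 and −1.25 at 0 h and −1.50 and −1.59 at 1 h to 0.52 and 0.70 at 10 h, a change of 2.40 ± 0.37 (SE, limma adjusted p = 0.00542). IZUMO1R rose by 2.04 ± 0.35 (limma adjusted p = 0.0112) and ARHGAP30 by 1.39 ± 0.23 (limma adjusted p = 0.00739). The promoter peak of ARHGAP30 had percentiles of 29.5 and 86.5 at 10 h, the lower of which was below the 33.5 of 1 h replicate 1. In each of these 7 regions the called scores did not overlap those of 0 h. The same scores picked out the regions, so this adds no support to the calls. The calls depended on the settings and the lists, and 0 were made at either time when regions were ranked by fold or when limma was run without a trend. At 1 h, 0 were called without 0 h replicate 1 or without 1 h replicate 1, and 1 without each of the other 4 lists. At 10 h, 0 were called without either 10 h list, 2 without either 0 h list and 3 without either 1 h list.

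**Figure D5:**
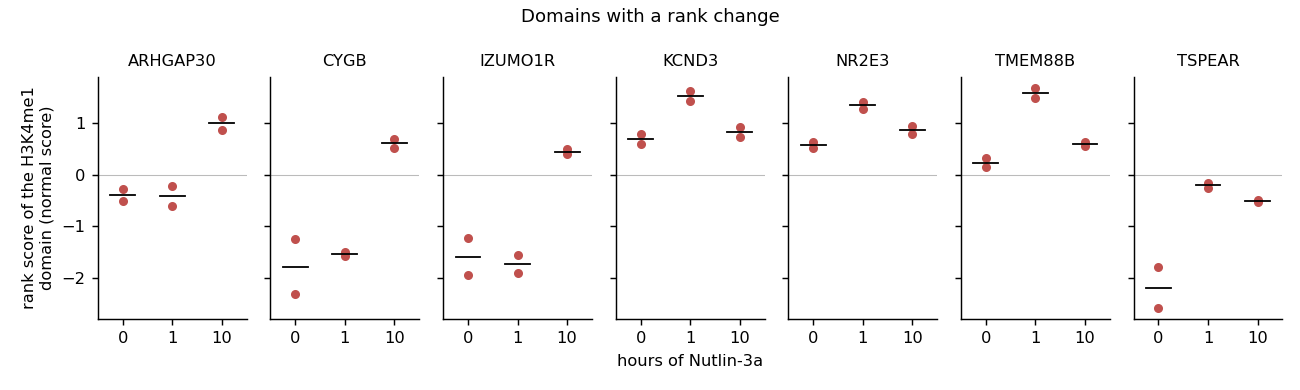
Rank scores of the H3K4me1 region (normal scores of the within-list rank, y axis) in the 6 lists by hours of Nutlin-3a (x axis) for the 7 members whose region was called at 1 h or 10 h; points are lists and bars the mean of 2. CYGB, IZUMO1R and ARHGAP30 are highest at 10 h, KCND3, NR2E3 and TMEM88B at 1 h, and TSPEAR is above its 0 h scores at both times.

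Width did not change detectably. The members' median width was 1375.5 ± 70.0 bp at 0 h, 1537.5 ± 103 bp at 1 h and 1290.5 ± 124 bp at 10 h (SD, n = 2 lists each), and the medians of all peaks moved alike (1166 and 1152, 1248 and 1269, 1122 and 1160 bp). With log2 widths, summed over the peaks of a region and centred on each list's median, limma called 0 member regions and 0% of the 60476 regions at 1 h and 0% at 10 h. At an unadjusted p under 0.05, 52 member regions (6.71%) passed at 1 h and 36 (4.65%) at 10 h, beside 10.4% and 6.69% of all regions. The median centred change of the members was −0.07 at 1 h and 0.003 at 10 h on the log2 scale. The smallest adjusted p over the members was 0.183 at 1 h and 0.204 at 10 h.

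By chromosome, members made up 5.30% of the coding genes of chromosome 20 (29 of 547), the highest share, and among the autosomes the lowest share was 1.31% on chromosome 21 (3 of 229). The start site lay inside the body of another coding gene at 127 members (16.0%), a share close to the 17.6% of the acetylated genes. Just inside the rule, the weakest of the 6 H3K4me1 peaks had a −log10 q-value of 1.07 at AFAP1L2, 1.19 at GBP2 and 1.24 at CREB3L1. Just outside it were 180 genes with H3K4me1 in all 6 lists and H3K27ac in a single list. The lowest −log10 q-values of such a single peak were 1.33 at DHRS9, 1.48 at PLTP and 1.59 at TRIM54. Of these single peaks, 31 and 35 were in the WT 1 h lists, 13 and 19 in the WT 0 h lists and 2 and 6 in the WT 10 h lists. In the RAD21 line 22 and 15 were in the 0 h lists and 17 and 20 in the 1 h lists, which overlap. A further 121 genes without H3K27ac had H3K4me1 in 5 lists, with the highest mean percentiles over those 5 at GIP (99.4), SH2D2A (97.5) and TSKS (93.4). With the 6 WT H3K27ac lists alone, a looser rule that can only add genes, 909 would have qualified.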

How the data were processed

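According to the study's methods and the submitters' processing notes, the authors trimmed paired-end reads with Trim Galore 0.6.6, mapped them to GRCh37 with Bowtie2 2.3.2, removed low-quality, duplicate and blacklisted reads and called peaks with MACS2 2.2.7.1 against an input. H3K27ac peaks are narrow calls and H3K4me1 peaks broad ones. The deposited lists, 1 per library, give each peak's fold enrichment (a ratio over local background) and its −log10 p-value and −log10 q-value, as the authors' caller wrote them. These depend on each library's depth, which the lists do not give, so they were used only to rank or filter within a list. The lowest −log10 q-value was 1.01 for H3K4me1 and 1.30 for H3K27ac. The 10 input libraries were not used here.

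Start sites came from basic transcripts of coding genes in GENCODE release 44 lifted to GRCh37, where the study used an earlier Ensembl release. Peak ends lay within chromosome length on all 24 chromosomes checked. Overlapping H3K4me1 peaks of the 6 lists were merged into 110276 regions, and 60476 called in all 6 were fitted with limma 3.58.1 (lmFit, eBayes with a trend, Benjamini-Hochberg adjustment, threshold 0.05), without covariates. The fit was tested on simulated data. Widths and start sites were compared over lists with exact sign-flip permutation tests. The members, families, lists and tests were chosen with earlier results of these data known. Named genes were the 10 widest and 3 narrowest, the 5 strongest and 3 weakest, those with the smallest p in each fit, members of the gene lists and the 3 widest of a family, those at the edge of the rule or at the extremes of distance, and groups of 3 in a region. Others were chosen after their values were seen. Some genes and promoter sequences that these rules select are not reported here.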

Additional observations from a re-analysis of the deposited data

How the results depend on the processing

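The number of H3K4me1-only genes was 351 with H3K4me1 peaks of −log10 q of at least 5, 405 when H3K4me1 had to cover at least 50% of the promoter and 492 when H3K27ac had to be absent from 5000 bp on both sides of every start site, against 795. It ranged from 797 to 848 when any single list was left out. Leaving out a list can only relax the rule, so all 795 genes were kept by construction. With the start sites of all transcripts 850 genes qualified, of which 677 were among the 795. With only the outermost start site 932 did, with 617 among the 795. With H3K27ac peaks of −log10 q of at least 5 there were 1010, which by construction include all 795. The width and start site comparisons kept their direction under every setting run. Without a single list they had means of −1.15 to −1.08 (log2) and 14.1 to 16.7 percentage points, at p = 0.0625 in the exact permutation test, the smallest that 5 lists can give, which by construction misses the threshold. The rank test called 360 regions at 1 h and 386 at 10 h. Ranking by fold left 6 and 4, and limma without a trend 0 and 0, the cause of which was not tested. Leaving out a list gave 19 to 183 at 1 h and 5 to 379 at 10 h. Replicate numbers are those of the labels, and peak names inside some lists, such as those at 1 h for H3K4me1, carry other numbers. Replicates with the same label number did not deviate together (r from −0.0228 to 0.0236). Because some peak names carry other numbers, this cannot tell whether lists shared a culture. The fit with a replicate block called 435 and 401. Width fits called 0 regions under every setting run, at both times, with 6317 and 4045 regions at an unadjusted p under 0.05. Without read counts, how depth limits these tests is unknown.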
